A study of Mus musculus with 15 samples.

Results

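The 68 genes described here encode the receptor subunits for the transmitters GABA, glutamate, glycine and acetylcholine in the mouse. They were chosen by gene symbol among the 55359 genes of the deposited matrix: every GABA-A (Gabr), GABA-B (Gabbr), AMPA (Gria), kainate (Grik), NMDA (Grin), delta (Grid), metabotropic glutamate (Grm), glycine (Glr) and nicotinic (Chrn) subunit gene. No measured value entered the choice. By class there were 19 GABA-A, 2 GABA-B, 5 glycine, 4 AMPA, 5 kainate, 7 NMDA, 2 delta, 8 metabotropic glutamate, 11 neuronal nicotinic and 5 muscle nicotinic genes.

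RNA of 15 samples in 5 groups of 3 was sequenced. 46LCNEC_cell was a large cell neuroendocrine carcinoma line that grew as an adherent monolayer, sampled from 3 dishes (A, B and C), and 57SCLC_cell was a small cell lung cancer line that grew as floating aggregates, sampled from 3 flasks (A, B and C). Both lines came from lung tumors of QKO mice, whose floxed alleles include Rb1 and Trp53, on an Rbl1-null background; the 46LCNEC tumor followed Ad-CMVcre and the 57SCLC tumor followed Ad-K5cre, adenoviruses that express Cre from a general promoter and from the keratin 5 promoter. 46LCNEC_allo (tumors 312, 319 and 321) and 57SCLC_allo (tumors 275, 316 and 317) were tumors grown under the skin of immunocompetent QKO mice after injection of the same lines. Lung (CT3, CT4 and CT5) was normal lung of littermates. Each tumor type was thus represented by 1 line, so that the type, the virus, the growth form and the line cannot be told apart. The dishes and flasks came from 1 line each, and p-values for the cells measure the spread between cultures, which may be technical.

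GABA-A, glycine and nicotinic receptors are chloride or cation channels built from 5 subunits of one protein family, and which subunits a cell makes decides the pharmacology of the channel. AMPA, kainate and NMDA receptors are cation channels built from 4 subunits. GABA-B and metabotropic glutamate receptors signal through G proteins. Most of these genes are known for their work at synapses. Neuroendocrine cells share part of the neuronal gene program, and nicotinic and GABA receptors have also been described in lung epithelium.

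Values are normalized counts (reads per gene divided by the size factor of the sample, as deposited). Between 9480244 and 44876572 reads were counted per sample (median 26502525), and a library with at most 3 reads of a gene was taken as not detecting it. A gene is said to be called, or higher or lower, where limma's p, adjusted by Benjamini and Hochberg's method over all genes tested, did not exceed 0.01 and the groups differed by 1 or more on the log2 scale. Fold changes are on the log2(normalized count + 1) scale, which understates the change of weakly expressed genes.

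The labelled tissues were checked against marker genes. The summed alveolar and airway markers were 299429 to 398360.0 in Lung and at most 35421 in tumor groups. The sum of 57SCLC_cell was almost wholly Nkx2-1, at 34869, 33031 and 29463.5, above its values in Lung (12946, 14051 and 16406). Sftpc and Scgb1a1 were at or under 21.3 and 19.8 in 57SCLC_cell, against at least 58062 and 151023 in Lung. The summed neuroendocrine markers were 61504 to 71449.9 in 57SCLC_cell, 35048 to 38363 in 57SCLC_allo, 28654 to 31530.0 in 46LCNEC_cell, 3089 to 7405 in 46LCNEC_allo and 271 to 293 in Lung. The sum of 46LCNEC was almost wholly Ncam1, at 28614, 29684 and 31510.0 in 46LCNEC_cell, while Chga, Chgb, Calca, Syp, Dcx, Scg3 and Scg2 were at or under 15.5 there and at or under 18.5 in 46LCNEC_allo. Endothelial markers rose from at most 385 in the cultures to 4659.6 to 7993 in 46LCNEC_allo and 2293 to 3224 in 57SCLC_allo, and fibroblast and pericyte markers reached 151567 to 369161 and 16929 to 27012. The allografts thus held markers of host tissue. Fibroblast and pericyte markers were also at 27086 to 29760.2 in 46LCNEC_cell, against 61.5 to 74.7 in 57SCLC_cell. In bulk samples, fewer cells of a type and less RNA per cell cannot be told apart.

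One known link between these genes is the repressor REST, which silences neuronal genes in other tissues by binding a DNA element called RE1. Rest itself stood at 6.55, 9.05 and 5.73 normalized counts in 57SCLC_cell flasks A, B and C and at 1947, 1878 and 1874 in the 46LCNEC_cell dishes. The sequence within 1000 bases of the start of each gene's canonical transcript was searched on both strands of GRCm39 for TTCAGCACC, any 2 bases, GGACAG, any base, then GCC. This search was made with the values of the genes known. At most 3 of the 18 fixed letters differed in 7 of the 68 receptor genes, against 0.902% of all 21627 protein-coding genes searched. The best match in 6 of these genes is shown in the direction of the motif, with the letters that match in capitals, because these receptor genes had close matches:
Chrnb2: TTCAGCACCacGGACAGcGCt
Grin1: TTCAGCACCtcGGACAGcaCC
Glra1: TTCAGCACCacGGAgAGcGtC
Glra3: TTCAGCACCtcaGACAGctCC
Gria2: TTtAGCACCgcGGACAGcGCt
Gabrd: TTCAGCACCgaGGACgGcGga

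The Chrnb2 match (chr3:89671761-89671781, minus strand) and the Grin1 match (chr2:25209026-25209046, minus strand) differed from the motif in 1 letter each and lay in the 5′ UTR, 182 and 176 bases downstream of the start. The matches of Glra1 (chr11:55498763-55498783, plus strand), Glra3 (chr8:56393795-56393815, minus strand) and Gria2 (chr3:80710296-80710316, plus strand) differed in 2 letters and also lay in the 5′ UTR. That of Gabrd (chr4:155482137-155482157, plus strand) differed in 3 letters and lay in an intron. Of these genes, Chrnb2, Grin1 and Gabrd were higher in 57SCLC than in 46LCNEC samples of both kinds, as given for each gene later, while Glra1, Glra3 and Gria2 stayed at or under 23.8 normalized counts in every sample. The other receptor genes among the 17 higher in 57SCLC in both comparisons had no match within 3 letters, with Gabrq, Chrnd, Grid1 and Grm2 among them. A match describes letters and not binding, and the part of Rest in these levels was not tested.

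Receptor genes were expressed unevenly. Across all 15 samples 4 genes (Gabra6, Glra4, Chrna6 and Chrnb3) had no read, 6 never passed 3 reads in any library, and 14 passed it in every library. A group mean of at least 100 normalized counts was reached by 28 genes, of which 8 had their highest group mean in 57SCLC_cell, 8 in 57SCLC_allo, 5 in Lung, 4 in 46LCNEC_cell and 3 in 46LCNEC_allo. All 3 libraries passed 3 reads for 44 receptor genes in 57SCLC_cell, 43 in Lung, 35 in 57SCLC_allo, 26 in 46LCNEC_cell and 20 in 46LCNEC_allo. These counts depend on depth and were not set beside the share of all genes, so they do not rank the groups. Reads counted were 37368046 to 44876572 in 57SCLC_cell, 9480244 to 20378892 in 57SCLC_allo and 21917273 to 26502525 in 46LCNEC_allo. A mean of at least 1000 was found for 7 genes in each 57SCLC group, for 4 in Lung, 3 in 46LCNEC_cell and 2 in 46LCNEC_allo. The 31 genes not named by the rule for named genes stayed at or under 109.9 normalized counts in every sample.

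**Figure D1:**
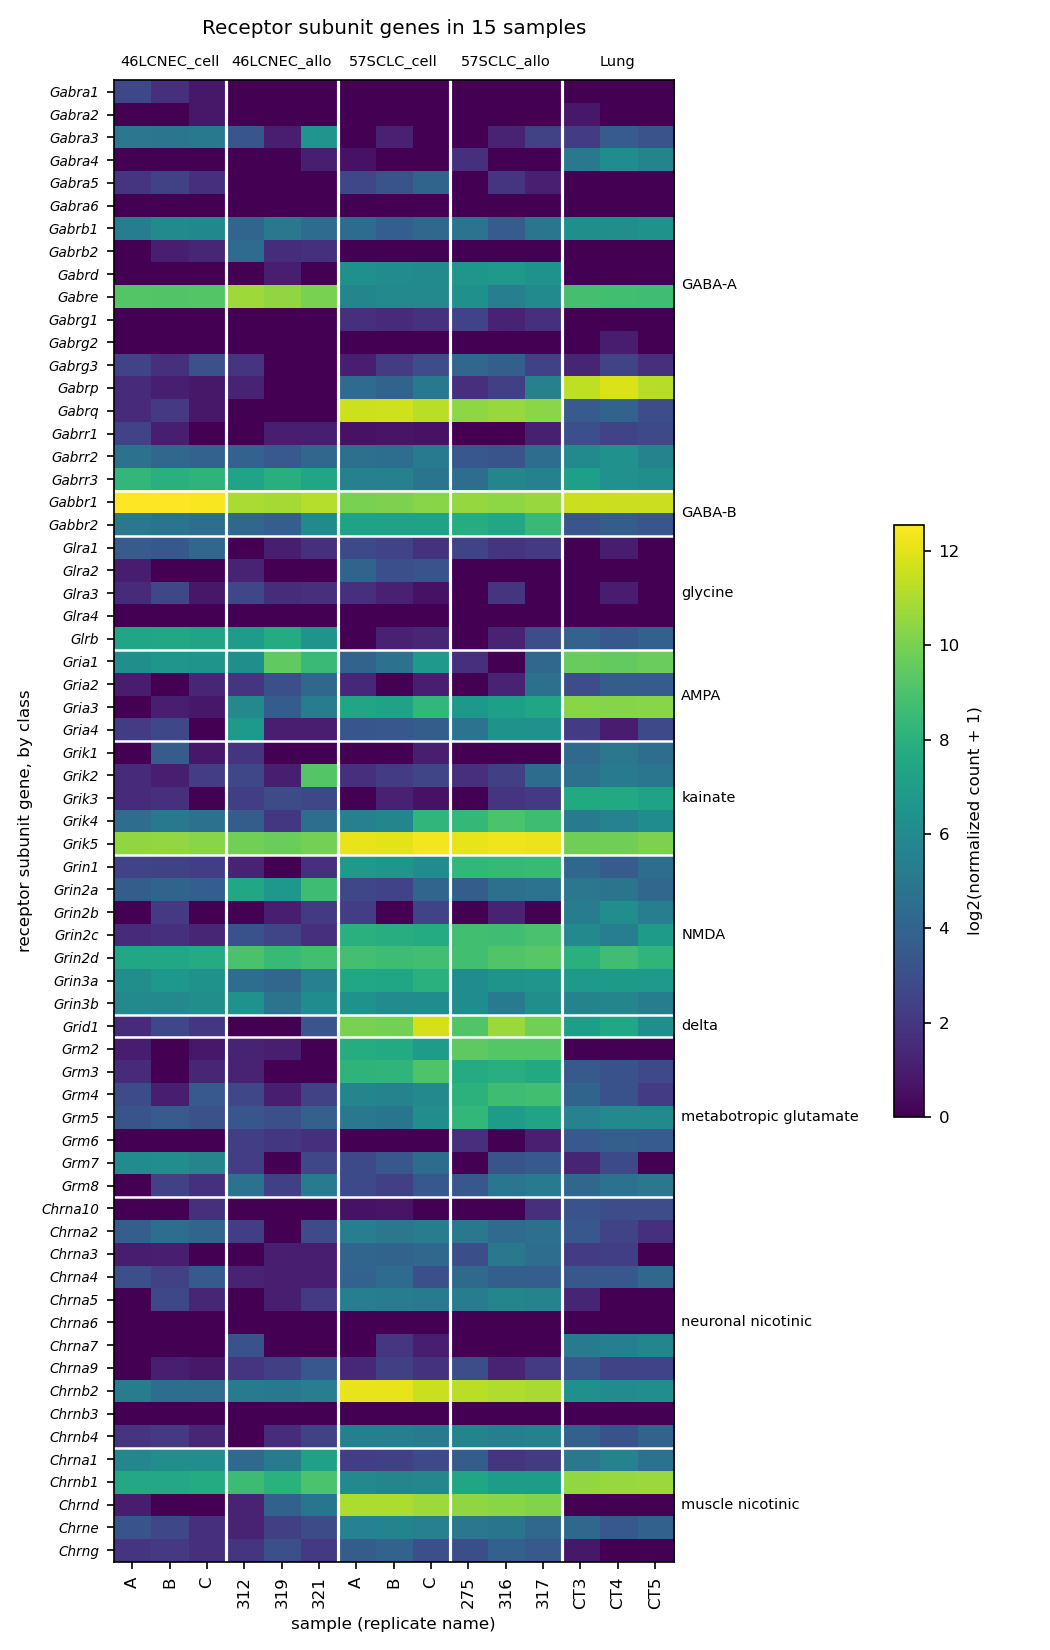
Each row is 1 of 65 receptor genes, grouped by class, and each column 1 of the 15 samples, with the color giving log2(normalized count + 1). Gabrq, Chrnb2, Chrnd and Grid1 are bright in the 6 samples of 57SCLC, Gabrp, Gria1 and Gria3 in the 3 Lung samples, and 4 rows are empty throughout.

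Whether the 2 lines differ in their receptors was asked first in culture. Between 57SCLC_cell and 46LCNEC_cell, 23 receptor genes were higher in 57SCLC_cell, where 23.9% of all genes tested were called higher, and 10 were lower, where 22.2% of all genes were. Only 39 of the 68 reached 10 normalized counts in at least 3 samples and were tested, and 17 of these 39 did so in 1 of the lines alone, so that their high group decided that they were tested. Their median log2 fold change was 1.74, against 0.00028 over all genes. Between the allografts 19 were higher in 57SCLC_allo (16.1% of all genes) and 6 were lower (14.2% of all genes) of 37 tested, of which 14 reached the minimum in 1 of the groups alone, with a median of 2.85 against 0.015 over all genes. Without tumor 275 or 316, 3 receptor genes were lower, where 2101 and 1965 of all genes were. Over all genes 2821 were called higher and 2491 lower in 57SCLC_allo, and with library size scaling 3580 and 1957, while the receptor genes were at 20 higher and 5 lower. Of the 68 genes, 17 were higher in 57SCLC in both comparisons and 4 were lower in both, namely Gabre, Gabrr3, Glrb and Chrnb1. Both comparisons set the same 2 lines against each other. The counts of 17 and 4 were not set beside the share of all genes called alike in both, so they do not set receptor genes apart.

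**Figure D2:**
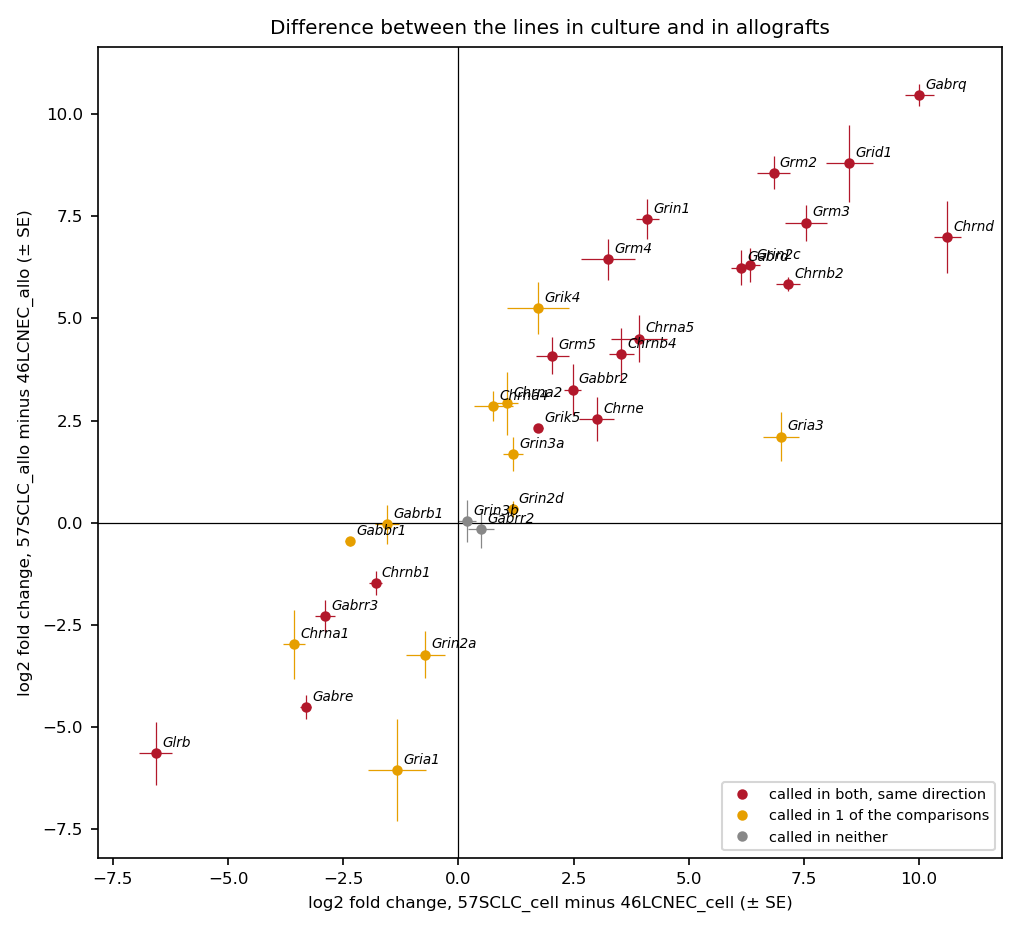
Each point is 1 of 33 receptor genes tested in both comparisons of the lines, with the log2 fold change in culture on the horizontal axis, that in allografts on the vertical axis and SE as bars. Gabrq lies farthest to the upper right (10.01 and 10.47), and Glrb farthest to the lower left (-6.57 and -5.65).

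Among the GABA-A genes, the theta subunit gene Gabrq (ENSMUSG00000031344, chrX:71868784-71886208, plus strand) stood out in 57SCLC. Gabrq was at 3083, 3181 and 2435 in 57SCLC_cell and 1350.1, 1568 and 1344 in 57SCLC_allo, and at 1.88, 3.31 and 0.769 in 46LCNEC_cell. No read of it was found in the 3 tumors of 46LCNEC_allo, against which it was at least 408-fold higher in 57SCLC_allo when 3 reads per library were allowed. In Lung it stood at 11.2, 15 and 7.02, so all 6 samples of 57SCLC lay above all others. The log2 fold change between the lines in culture was 10.01 ± 0.32 (SE), adjusted p = 5.34e-08.

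The delta subunit gene Gabrd, part of receptors outside synapses, was found in 57SCLC alone at a level above 3 reads per library. It was at 79.1, 66.3 and 63 in 57SCLC_cell and 98.1, 106 and 82.8 in 57SCLC_allo, with 1 read in total over the other 9 libraries. Against 46LCNEC_cell, with no read, it was at least 24.7-fold higher at 3 reads per library. The pi subunit gene Gabrp, known from epithelia, was a Lung gene with 2589.9, 3667 and 2341 normalized counts. It was weak in 57SCLC_cell (20.2, 15.1 and 32.3) and 57SCLC_allo (2.39, 4.25 and 43.1) and at most 1.88 in 46LCNEC samples, and it was called higher in 57SCLC_cell than in 46LCNEC_cell (log2 fold change 3.35 ± 0.34, adjusted p = 4.05e-05).

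46LCNEC had other GABA-A genes. The epsilon subunit gene Gabre (ENSMUSG00000031340, chrX:71299605-71318409, minus strand) was at 585, 563 and 589 in 46LCNEC_cell and 1673, 1410.4 and 1031 in 46LCNEC_allo, against 54, 59.1 and 59.4 in 57SCLC_cell, 76.6, 41.1 and 61.3 in 57SCLC_allo and 454, 427 and 411 in Lung. All 6 samples of 46LCNEC lay above Lung and Lung above all 6 samples of 57SCLC. The log2 fold change between the lines was -3.31 ± 0.12 in culture (adjusted p = 1.08e-07) and -4.52 ± 0.29 in allografts (adjusted p = 4.14e-05). The rho subunit gene Gabrr3, of the receptors once called GABA-C, was at 319, 249 and 291 in 46LCNEC_cell and 162, 229 and 168 in 46LCNEC_allo. In 57SCLC it was at 21.5 to 51, and it was lower there in both comparisons (-2.90 ± 0.22 and -2.29 ± 0.39). The weak members Gabra3 and Gabrb1 were lower in 57SCLC_cell, with log2 fold changes of -4.62 ± 0.35 and -1.55 ± 0.27. Gabra3 was at 30, 29.8 and 33.1 in 46LCNEC_cell and in the allografts mostly in tumor 321 (9.27, 1.05 and 95.1). Gabrb1 was highest in Lung (74, 71.8 and 87.8) and was not called between the allografts (-0.04 ± 0.48, adjusted p = 0.952).

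Most GABA-A receptors of the brain join alpha, beta and gamma subunits. The 3 gamma subunit genes stayed at or under 16.8 normalized counts in every sample. The 6 alpha subunit genes reached at most 15.6 in 57SCLC_cell and 4.54 in 57SCLC_allo. Levels of different genes were compared per kb of exon. On that scale the 6 alpha genes together were at 1.17 ± 0.539 normalized counts per kb in 57SCLC_cell (SD, n = 3), where Gabrq was at 542 ± 75.7. Gabre made up 51.7% ± 1.43 of the GABA-A sum per kb in 46LCNEC_cell and 82.3% ± 5.24 in 46LCNEC_allo, and Gabrp 84.2% ± 2.68 in Lung. The 11 GABA-A genes not described singly stayed at or under 79.8 normalized counts, a value of Gabrr2 in Lung. By class, 4 GABA-A genes were higher and 4 lower in 57SCLC_cell of 9 tested, and 3 were higher and 2 lower in 57SCLC_allo of 7 tested. Of all genes, 23.9% were higher and 22.2% lower in culture, and 16.1% higher and 14.2% lower in allografts. In culture 4 of the 9 GABA-A genes, and in allografts 2 of the 7, reached the minimum count for testing in 1 of the groups alone. Their high group decided that they were tested.

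GABA-B receptors need both Gabbr1 and Gabbr2, and the 2 genes moved in opposite directions between the cultured lines. Gabbr1 was at 5854, 6018 and 5552 in 46LCNEC_cell and 1030.4, 1097 and 1279 in 57SCLC_cell (log2 fold change -2.36 ± 0.09 (SE), adjusted p = 1.63e-07). In the allografts the values drew closer, with 2016, 1867 and 2261 in 46LCNEC_allo and 1532, 1350.5 and 1583 in 57SCLC_allo, and the difference was not called (-0.46 ± 0.12, adjusted p = 0.0135). Gabbr2 was at 155, 149 and 157 in 57SCLC_cell, 220.2, 179.8 and 348 in 57SCLC_allo, 31, 27.6 and 22.3 in 46LCNEC_cell, 17.2, 12.6 and 63.1 in 46LCNEC_allo and 8.97, 12 and 9.36 in Lung. It was higher in 57SCLC in culture (2.48 ± 0.18) and in allografts (3.26 ± 0.62), where the call was lost without tumor 312 or any 1 of the 57SCLC_allo tumors. Per kb of exon Gabbr1 exceeded Gabbr2 in every group, by 121 ± 13.7 against 18.6 ± 0.496 in 57SCLC_cell and 619 ± 25.3 against 3.26 ± 0.528 in 46LCNEC_cell.

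The glycine receptor genes were nearly silent except for the beta subunit gene Glrb, which anchors the receptor to gephyrin. Glrb was at 163, 182 and 161 in 46LCNEC_cell and 123, 207 and 90.7 in 46LCNEC_allo, against 0, 1.2 and 1.56 in 57SCLC_cell, 0, 1.42 and 6.81 in 57SCLC_allo and 14.2, 9.97 and 14 in Lung. Both 46LCNEC groups lay above every other sample, and the log2 fold change between the lines was -6.57 ± 0.36 in culture (adjusted p = 1.08e-06) and -5.65 ± 0.78 in allografts (adjusted p = 0.000979). The 4 alpha subunit genes, which bind glycine, were not named by the rule and stayed at or under 16.9 normalized counts in every sample.

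**Figure D3:**
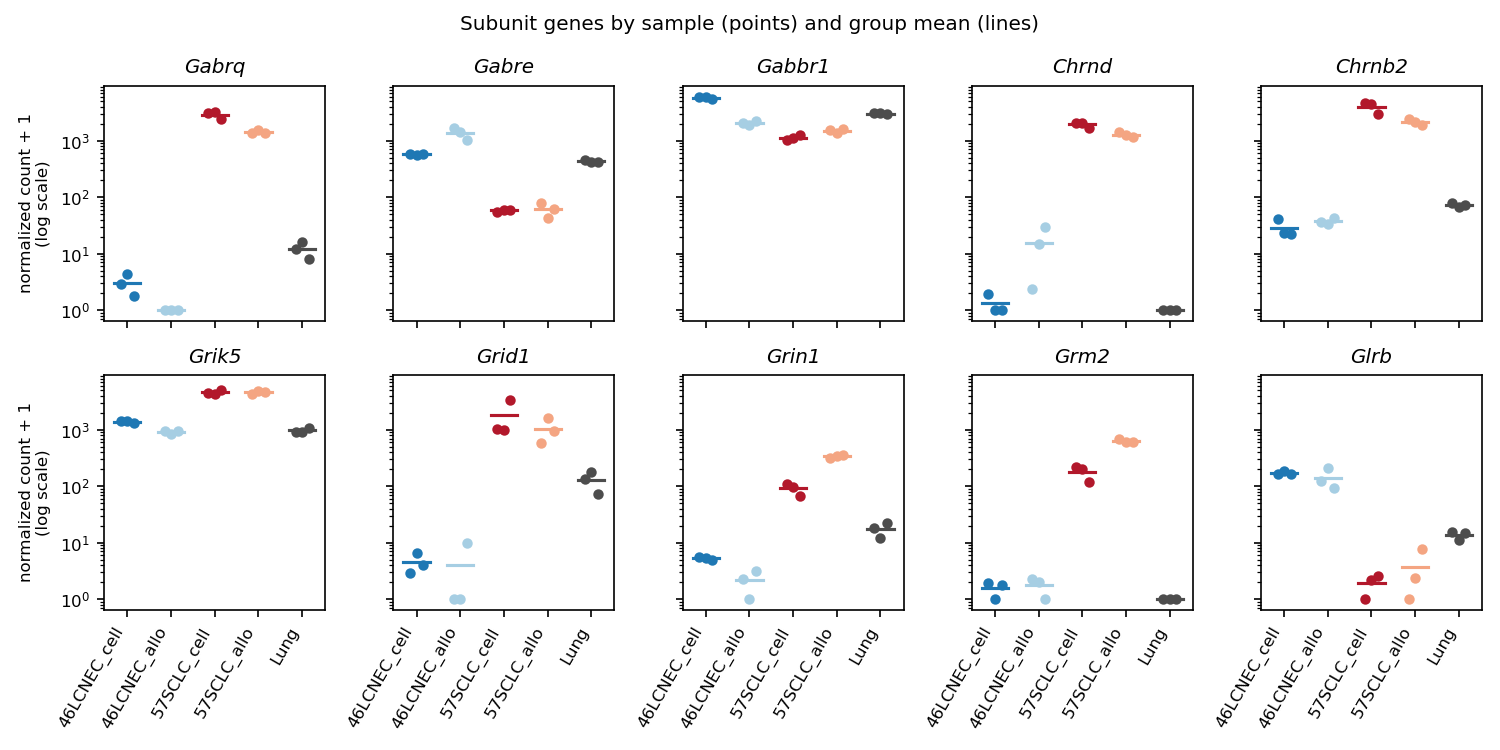
The normalized counts of 10 receptor genes are drawn with 1 added on a log scale, 1 point per sample and a line at each group mean. In 57SCLC, Gabrq, Chrnd, Chrnb2, Grid1, Grin1 and Grm2 lie above all other samples, while Gabbr1 is highest in the 3 dishes of 46LCNEC_cell (5854, 6018 and 5552).

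Of the AMPA receptor genes, Gria1 and Gria3 were highest in Lung, and Gria2, whose subunit makes the channel impermeable to calcium, stayed at or under 23.8 in every sample. Gria1 was at 801, 739 and 849 in Lung, 76, 99.3 and 88.4 in 46LCNEC_cell and 74.2, 729 and 346 in 46LCNEC_allo, where the 3 tumors differed widely. In 57SCLC it was at 14.7, 24.7 and 105 in the flasks and 2.39, 0 and 18.2 in the tumors. It was lower in 57SCLC_allo than in 46LCNEC_allo (-6.05 ± 1.24 (SE), adjusted p = 0.00583), a call that was lost without tumor 319, 321, 275 or 316. Gria3 was at 1276, 1243 and 1265 in Lung, 163, 150.2 and 312 in 57SCLC_cell and 103, 136 and 165 in 57SCLC_allo, against 0, 1.1 and 0.769 in 46LCNEC_cell and 59.6, 11.6 and 37.6 in 46LCNEC_allo. It was higher in 57SCLC_cell (7.00 ± 0.39 (SE), adjusted p = 1.09e-06) and not called between the allografts (2.11 ± 0.59, adjusted p = 0.0213).

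The kainate receptor genes were carried by Grik5. This gene encodes GluK5, a subunit that forms no working channel without GluK1, GluK2 or GluK3. Grik5 was at 4539, 4275 and 5155 in 57SCLC_cell and 4292, 4773 and 4704 in 57SCLC_allo, against 1441, 1445 and 1298 in 46LCNEC_cell, 959, 856 and 965 in 46LCNEC_allo and 916, 909 and 1089 in Lung. It was higher in 57SCLC in culture (1.74 ± 0.09 (SE), adjusted p = 7.83e-07) and in allografts (2.31 ± 0.10 (SE), adjusted p = 1.13e-05). The 3 channel-forming genes Grik1, Grik2 and Grik3 summed to 0.327 ± 0.193 normalized counts per kb in 57SCLC_cell, beside 501 ± 48.5 for Grik5. In Lung they summed to 23.5 ± 2.8 per kb, beside 104 ± 11 for Grik5, with Grik3 at 197, 197 and 157 normalized counts. Grik2 exceeded 33.9 in tumor 321 of 46LCNEC_allo alone, at 585. Grik4 was at 333, 518 and 399 in 57SCLC_allo and 11.9, 3.16 and 22.1 in 46LCNEC_allo, which gave 5.26 ± 0.63 (SE), adjusted p = 0.000518. In culture it was at 43.1, 53.7 and 306 in 57SCLC_cell and 21.6, 33.1 and 25.4 in 46LCNEC_cell and was not called (1.73 ± 0.68, adjusted p = 0.0455). Grik1 stayed at or under 30.9 in every sample.

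Every NMDA receptor contains GluN1, the product of Grin1 (ENSMUSG00000026959, chr2:25181186-25209226, minus strand). Grin1 was at 111, 97.7 and 67.2 in 57SCLC_cell and 318, 335 and 361 in 57SCLC_allo, and at 4.69, 4.41 and 3.84 in 46LCNEC_cell, 1.32, 0 and 2.21 in 46LCNEC_allo and 17.2, 11 and 21.1 in Lung. The log2 fold change between the lines was 4.10 ± 0.25 (SE), adjusted p = 1.87e-06, in culture and 7.44 ± 0.48 (SE), adjusted p = 4.19e-05, in allografts. An antisense gene and Lrrc26 share 11.8% of its exon bases, and without a stated strand setting their reads cannot be told apart there. Grin2c, a subunit gene of slow NMDA receptors, was also higher in 57SCLC, with 253, 229 and 210.0 in 57SCLC_cell, 433, 422 and 486 in 57SCLC_allo and at most 7.95 in 46LCNEC samples (6.33 ± 0.21 and 6.31 ± 0.42). Grin2a went the other way in allografts, with 176, 101 and 398 in 46LCNEC_allo and 12, 24.1 and 26.1 in 57SCLC_allo (-3.23 ± 0.57 (SE), adjusted p = 0.00294), a call that was lost without tumor 312 or any 1 of the 57SCLC_allo tumors.

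Grin2d, which is known from embryonic tissue, and Grin3a were found in all groups. Grin2d was at 175 to 212 in 46LCNEC_cell, 369 to 487 in 46LCNEC_allo, 402 to 635 in the 57SCLC groups and 252 to 419.9 in Lung. It was higher in 57SCLC_cell (1.18 ± 0.12), and the allograft difference was 0.33 ± 0.19 (adjusted p = 0.187). Grin3a was at 184, 168 and 253 in 57SCLC_cell and 72.2, 104 and 86.9 in 46LCNEC_cell (1.19 ± 0.21, adjusted p = 0.00115), at 16.8 to 97.6 in the allografts and at 108 to 113 in Lung. Grin2b and Grin3b stayed at or under 87.8 in every sample. Per kb, Grin1 was below Grin2d in each group, at 8.29 ± 2.01 against 54.2 ± 2.79 in 57SCLC_cell, 30.5 ± 1.93 against 69 ± 13.2 in 57SCLC_allo and 0.389 ± 0.039 against 24 ± 2.62 in 46LCNEC_cell.

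**Figure D4:**
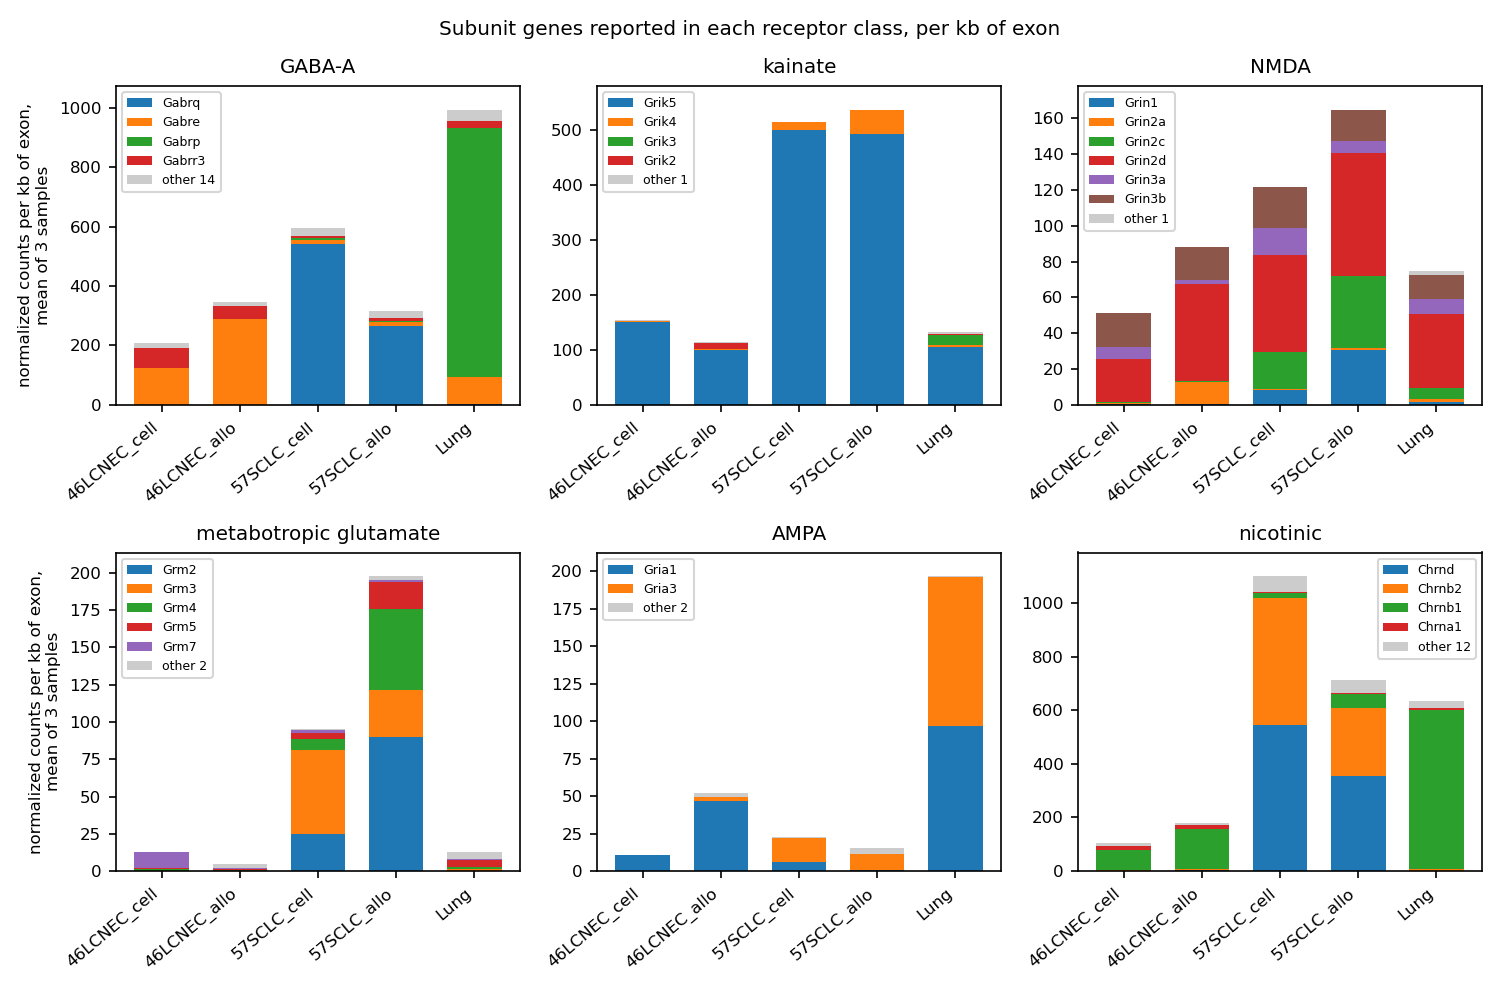
Stacked bars give the mean normalized counts per kb of exon of each receptor subunit gene in each group (3 samples), from 0 and for 6 receptor classes, with further genes of a class in gray and genes not reported left out. Of the genes drawn, Gabrq takes most of the GABA-A bars of 57SCLC and Gabrp most of that of Lung, Grik5 makes up 78.4% ± 2.51 of the kainate bar of Lung and more in the tumor groups, and Chrnd and Chrnb2 the nicotinic bars of 57SCLC.

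The delta receptor protein encoded by Grid1 bridges synapses by binding cerebellins. Grid1 (ENSMUSG00000041078, chr14:34541769-35305336, plus strand) was at 1050.1, 977 and 3399 in 57SCLC_cell, 572, 1599.6 and 941 in 57SCLC_allo and 131, 178 and 71.4 in Lung, and at 1.88, 5.52 and 3.08 in 46LCNEC_cell and 0, 0 and 8.85 in 46LCNEC_allo. It was higher in 57SCLC in culture (8.48 ± 0.51 (SE), adjusted p = 1.78e-06) and in allografts (8.80 ± 0.95 (SE), adjusted p = 0.000335). Exons of other genes overlap 13.5% of the exon bases of Gabrr3, 13.2% of Chrna1 and 11.5% of Gabrp.

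Metabotropic glutamate receptor genes were higher in 57SCLC for 4 of the 5 tested in each comparison. Over all genes 23.9% were higher in culture and 16.1% in allografts. Of the 5, 2 in culture and 3 in allografts had no sample at 10 normalized counts in 1 of the groups, so their high group decided that they were tested. Grm2 (ENSMUSG00000023192, chr9:106520294-106533870, minus strand), which signals through inhibitory G proteins, was at 214, 202 and 117 in 57SCLC_cell and 692, 616 and 603 in 57SCLC_allo, with no read in Lung and at most 1.32 normalized counts in 46LCNEC samples. Its log2 fold change was 6.84 ± 0.36 in culture and 8.56 ± 0.40 in allografts. Grm3, of the same subgroup, was at 287, 291 and 554 and 208, 241 and 196 in these groups (7.54 ± 0.46 and 7.34 ± 0.44). Grm4 was at 52.9, 47.6 and 59.9 in 57SCLC_cell and 268, 405 and 430.1 in 57SCLC_allo (3.25 ± 0.58 and 6.45 ± 0.50). Grm5, which acts through phospholipase C, was at 31.1, 28.9 and 69.8 and 321, 116 and 160.0 (2.04 ± 0.36 and 4.09 ± 0.46), with Lung at 47.1, 58.8 and 60.9. The exception was Grm7, at 64.7, 70.6 and 51.5 in 46LCNEC_cell against 6, 9.65 and 20.3 in 57SCLC_cell (-2.43 ± 0.40 (SE), adjusted p = 0.000696), and at 3.97, 0 and 5.53 in 46LCNEC_allo. Grm6 and Grm8 stayed at or under 35.2 in every sample.

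Muscle nicotinic receptors join the products of Chrna1, Chrnb1, Chrnd and either Chrng or Chrne. Chrnd (ENSMUSG00000026251, chr1:87118306-87127795, plus strand) was at 2095, 2093 and 1693 in 57SCLC_cell and 1405, 1275 and 1168 in 57SCLC_allo, at 0.938, 0 and 0 in 46LCNEC_cell and 1.32, 13.7 and 28.8 in 46LCNEC_allo, and without a read in Lung. It was higher in 57SCLC in culture (10.61 ± 0.29 (SE), adjusted p = 2.79e-08) and in allografts (6.99 ± 0.87 (SE), adjusted p = 0.000643). In culture this rested on 10562 reads against 1, a ratio of 6389 (95% interval 1146 to 252362), an interval for counting error only. Its neighbor Chrng, the fetal gamma subunit gene on the same strand of chromosome 1, stayed at or under 15.1 in every sample. The adult epsilon gene Chrne was at 45.8, 49.5 and 43.2 in 57SCLC_cell and 8.44, 5.52 and 2.31 in 46LCNEC_cell (3.0 ± 0.38). Chrna1, the subunit that binds acetylcholine, was lower in 57SCLC_cell (-3.57 ± 0.24 (SE), adjusted p = 3.1e-06), with 3.82, 4.22 and 5.73 in 57SCLC_cell and 54.4, 70.6 and 70 in 46LCNEC_cell.

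Chrnb1 was a Lung gene at 1462, 1554 and 1631. It was at 189, 191 and 209 in 46LCNEC_cell and 387, 262 and 517 in 46LCNEC_allo, and lower in 57SCLC_cell (58.4, 53.1 and 55.8, log2 fold change -1.80 ± 0.15) and in 57SCLC_allo (165, 120.3 and 120.3, -1.48 ± 0.29). The allograft call was lost without tumor 312 or 321 or any 1 of the 57SCLC_allo tumors. Per kb, Chrnd was at 544 ± 64.2 in 57SCLC_cell, beside 21.4 ± 1.01 for Chrnb1 and 1.01 ± 0.222 for Chrna1. The sum of the skeletal muscle markers was 46.1 to 55.2 in 46LCNEC_cell, 106 to 116 in 57SCLC_cell, 133 to 225 in 57SCLC_allo, 92.9 to 298 in 46LCNEC_allo and 195 to 1172 in Lung. The sum of the embryonic muscle and myoblast markers also moved with Chrnd between the lines. It was 18.5 to 22.5 in 46LCNEC_cell, 178 to 219.5 in 57SCLC_cell, 43.1 to 425 in 46LCNEC_allo, 1243 to 1769 in 57SCLC_allo and 4754 to 5335 in Lung, where Chrnd had no read. Most of it was Des in every group, while Myod1 was at or under 19.2 and Myog at or under 22.1 in every sample. The part of these markers in the Chrnd result was not tested.

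Among the neuronal nicotinic genes, Chrnb2 (ENSMUSG00000027950, chr3:89653502-89671953, minus strand) was the strongest. It was at 4578, 4433 and 2986 in 57SCLC_cell and 2444, 2102 and 1902 in 57SCLC_allo, against 39.4, 22.1 and 21.5 in 46LCNEC_cell, 35.8, 32.6 and 40.9 in 46LCNEC_allo and 79.2, 65.8 and 71.4 in Lung. The log2 fold change between the lines was 7.15 ± 0.26 (SE), adjusted p = 1.13e-07, in culture and 5.84 ± 0.18 (SE), adjusted p = 6.33e-06, in allografts. Exons of Adar overlap 16.2% of its exon bases. The beta 2 subunit needs an alpha subunit to bind acetylcholine, and the genes Chrna2 to Chrna6 together were at 20.7 ± 1.2 normalized counts per kb in 57SCLC_cell, beside 473 ± 104 for Chrnb2. Chrnd and Chrnb2 made up 92.3% ± 0.923 of the nicotinic sum per kb in 57SCLC_cell and 85.5% ± 0.406 in 57SCLC_allo, and Chrnb1 made up 93.6% ± 0.817 in Lung.

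The genes Chrna5, Chrna3 and Chrnb4 lie within 67.9 kb of chromosome 9, a cluster known for its link to smoking. Chrna5 was at 40.4, 37.4 and 34.9 in 57SCLC_cell and 38.3, 53.8 and 47.7 in 57SCLC_allo, and Chrnb4 at 41.5, 41 and 35.4 and 47.9, 41.1 and 43.1. In 46LCNEC samples neither passed 5.52. Both were higher in 57SCLC in culture (3.92 ± 0.60 and 3.53 ± 0.27) and in allografts (4.51 ± 0.58 and 4.13 ± 0.64), and the allograft call of Chrnb4 was lost without tumor 275. Exons of Chrna5 and Chrna3 overlap. Chrna2 was weak, at 39.8, 30.8 and 37.5 in 57SCLC_cell and 13.1, 22.1 and 16.1 in 46LCNEC_cell (1.05 ± 0.25 (SE), adjusted p = 0.00526), and exons of Ptk2b cover 77.4% of its exon bases, so its value is uncertain. Its call was lost without any 1 of 5 of the 6 cultures, dish B of 46LCNEC_cell being the exception. Chrna7, the alpha subunit of a homomeric receptor, was at 34.4, 41.9 and 52.7 in Lung and at or under 7.95 in all tumor samples. This gene falls outside the rule for named genes and was picked after its values were seen. By class, 5 of 6 neuronal nicotinic genes tested were higher in 57SCLC_cell and 4 of 5 in 57SCLC_allo, with 1 not called in each comparison. The share of all genes called higher was 23.9% in culture and 16.1% in allografts. In culture 3 of the 6, and in allografts 4 of the 5, reached the minimum count for testing in 1 of the groups alone. Their high group decided that they were tested, so these counts do not set the class apart. The 7 neuronal nicotinic genes not named by the rule stayed at or under 52.7.

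Growth as an allograft was compared with culture within each line. In 46LCNEC, 4 receptor genes were higher in allografts (14.4% of all genes) and 5 lower (8.45% of all genes) of 23 tested. Among those, Grm7 (-4.30 ± 0.71), Grin3a (-1.73 ± 0.39) and Gabbr1 (-1.51 ± 0.10) fell, and Gria3 (4.32 ± 0.67), Grin2a (3.76 ± 0.49), Gabre (1.2 ± 0.18) and Grin2d (1.17 ± 0.17) rose. Without any 1 of the 46LCNEC_cell dishes, 3 fell, with Gabbr1 among them, and the calls of Grm7 and Grin3a were lost. Over all genes 1383 were lower with all samples, and 983, 844 and 769 without dish A, B or C. The Grin3a call was also lost with edgeR. In 57SCLC, 6 were higher in allografts (14.4% of all genes) and 2 lower (2.29% of all genes) of 37 tested. Those that rose were Grm4 (2.73 ± 0.22), Grm5 (2.16 ± 0.45), Grin1 (1.90 ± 0.20), Grm2 (1.88 ± 0.23), Chrnb1 (1.25 ± 0.20) and Gria4 (2.34 ± 0.45, outside the rule for named genes), and those that fell were Grin3a (-1.23 ± 0.23) and Gabrq (-1.02 ± 0.12). None was called lower by limma without flask A or tumor 275, and 1 was without flask B or tumor 316, while edgeR and DESeq2 called 2 lower over all 6 samples. Over all genes limma called 391 lower with all samples, 300 without flask A and 306 without tumor 275. The rises of Grm5 and Gria4 were each not called without flask A, flask B or tumor 317. The summed endothelial and fibroblast markers were higher in the allografts of each line than in its cultures, and their part in these results was not tested.

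Whether the difference between the lines itself changed from culture to allograft was tested with an interaction term over the 12 tumor samples. It was called for 6 of 42 receptor genes tested, where 17.5% of all genes were called in either direction. The difference moved toward 57SCLC in allografts for 4 genes, with Grin1 (3.34 ± 0.56) and Gabbr1 (1.90 ± 0.15) among them. It moved toward 46LCNEC for Gria3 (-4.89 ± 0.76) and Chrnb2 (-1.31 ± 0.34), and the Chrnb2 call was lost in 13 of 18 other settings. For Gabbr1 the larger move was the fall in 46LCNEC. For Grin1 it was the rise in 57SCLC_allo, with 46LCNEC samples at 4.69 or less.

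Each tumor group was set against Lung, and these 4 comparisons share the 3 Lung samples. In 46LCNEC_cell, 8 receptor genes were higher than in Lung (20.6% of all genes) and 18 lower (35% of all genes) of 36 tested, with a median of -1.12 against -0.23 over all genes. In 46LCNEC_allo, 3 were higher (13.4% of all genes) and 16 lower (22.1% of all genes) of 33 tested, with a median of -1.65 against -0.14. Without CT3 9 were lower, and without CT4 10. Over all genes the lower calls also fell, from 3987 of 18033 to 3023 of 18423 without CT3 and 3019 of 18440 without CT4. In 57SCLC_cell, 19 were higher (21.1% of all genes) and 18 lower (32.7% of all genes) of 44 tested, and in 57SCLC_allo 19 were higher (18.9% of all genes) and 15 lower (26.9% of all genes) of 45 tested. The 57SCLC medians were 0.55 and 0.30, against -0.12 and -0.087 over all genes. Of the 36 genes tested in 46LCNEC_cell, 15 had no sample at 10 normalized counts in 1 of the groups compared. The same held for 10 of the 33 in 46LCNEC_allo, 16 of the 44 in 57SCLC_cell and 13 of the 45 in 57SCLC_allo. The high group of these genes decided that they were tested.

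Lung had a receptor set of its own. Gabrp, Gria1, Gria3, Chrnb1 and Grik3 had their highest mean there. Gabrp was lower in 46LCNEC_cell (-10.32 ± 0.26), 46LCNEC_allo (-11.05 ± 0.42), 57SCLC_cell (-6.97 ± 0.29) and 57SCLC_allo (-8.25 ± 0.86). Grik3 had log2 fold changes of -6.45 ± 0.44, -4.89 ± 0.29, -6.94 ± 0.33 and -6.16 ± 0.57 in the same order, and Chrnb1 of -2.97 ± 0.09, -2.05 ± 0.24, -4.77 ± 0.11 and -3.52 ± 0.15. In 57SCLC, Gabrq (7.96 ± 0.26 in culture and 6.93 ± 0.27 in allografts) and Chrnb2 (5.75 ± 0.18 and 4.87 ± 0.14) were above Lung. Chrnd and Grm2 had no read in Lung, and with 3 reads per library allowed there Chrnd was at least 673-fold higher in 57SCLC_cell and 440.0-fold in 57SCLC_allo, and Grm2 at least 61-fold and 218-fold. The 3 genes higher in 46LCNEC_allo than in Lung were Gabre (1.64 ± 0.19), Grin2a (2.94 ± 0.54) and Glrb (3.29 ± 0.38). The Grin2a call was lost without tumor 312 or any 1 of the Lung samples.

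Flask C of 57SCLC_cell stood apart from flasks A and B. Over 13763 genes with a mean of at least 30 normalized counts, the log2 ratio of flask C to the mean of A and B went with the span of the gene (Spearman rho 0.428, across genes, which are not independent). Its median was 0.66 for the 721 genes that span over 200 kb and -0.13 for the 6096 under 20 kb. The same rho was between -0.112 and 0.133 for each 46LCNEC_cell dish against the others. Of 29 receptor genes at that level, 7 were over 0.9 in flask C, with Grik4, Gria1, Grid1, Grm5, Gria3 and Grm3 among them at spans of 242 to 764 kb. The other 22 lay between -0.83 and 0.52, and 2 of them span over 200 kb, Gabbr2 being 1 of these. As an alternative chosen after the data were seen, flask C was left out. The log2 fold change against 46LCNEC_cell was then 7.90 ± 0.35 (adjusted p = 2.05e-06) for Grid1. It was 6.67 ± 0.36 (adjusted p = 5.23e-06) for Gria3, 7.2 ± 0.48 (adjusted p = 1.28e-05) for Grm3 and 1.64 ± 0.24 (adjusted p = 0.000775) for Grm5. Gria1 became lower in 57SCLC_cell, at -2.14 ± 0.27 (adjusted p = 0.000313) against -1.34 ± 0.63 (adjusted p = 0.0836) with flask C, and Grin2a did so too, at -1.2 ± 0.24 (adjusted p = 0.00317). Grik4 was at 0.85 ± 0.25 (adjusted p = 0.0183). Without flask C, 23 receptor genes were higher and 12 lower in 57SCLC_cell. Over all 17259 genes tested in that setting, 4094 were higher and 4020 lower.

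**Figure D5:**
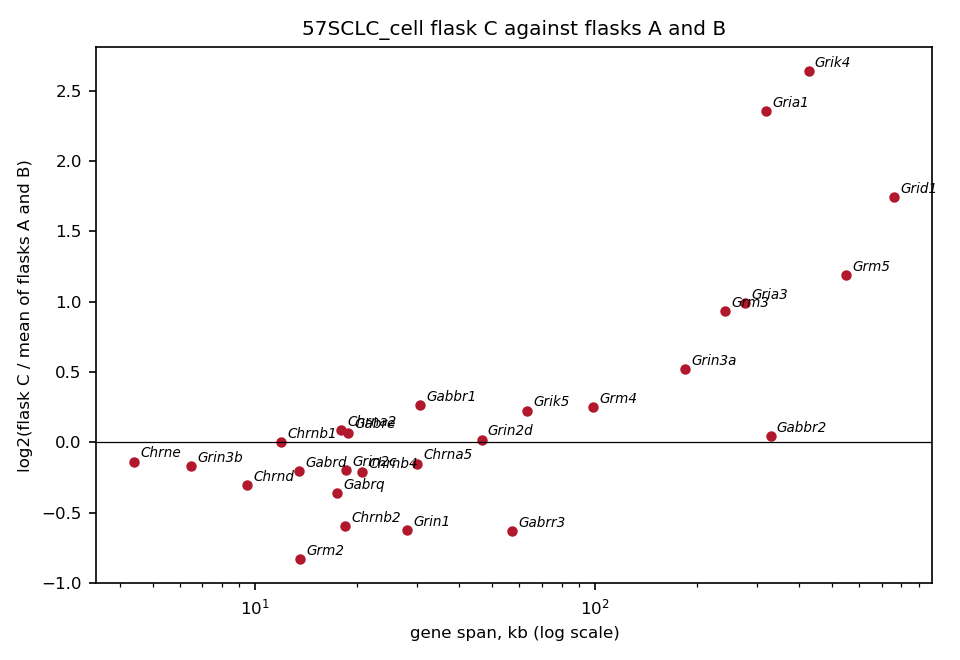
Each point is 1 of 27 receptor genes with a mean of at least 30 normalized counts in 57SCLC_cell, with its span in kb on a log axis and the log2 ratio of flask C to the mean of flasks A and B. The 6 genes above 0.9 all span at least 242 kb, and Gabbr2 is a long gene that stays below it.

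Proteins that work with these receptors were read from lists of partner genes. Of 9 genes for GABA synthesis, transport and breakdown, 3 were tested in each comparison of the lines, and 2 were higher in 57SCLC, where 23.9% of all genes were higher in culture and 16.1% in allografts. These were Abat, which breaks down GABA (1.84 ± 0.12 in culture and 4.42 ± 0.61 in allografts), and Aldh5a1, the next enzyme of that path (2.95 ± 0.21 and 2.96 ± 0.45). Of 13 scaffold and auxiliary genes of GABA and glycine receptors and chloride transporters, 5 were higher (23.9% of all genes) and 3 lower (22.2%) of 11 tested in culture, and 3 higher (16.1%) and 2 lower (14.2%) of 12 in allografts. The auxiliary genes Shisa7 (1160.5 ± 47 normalized counts in 57SCLC_cell and 5.31 ± 1.37 in 46LCNEC_cell) and Lhfpl4 (2560.5 ± 378 and 415 ± 23.7) were higher in 57SCLC, as was the GABA-B partner Kctd16, which was at 83.5, 82 and 805 in flasks A, B and C.

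Of 30 auxiliary and scaffold genes of AMPA, kainate and NMDA receptors, 15 were higher (23.9% of all genes) and 5 lower (22.2%) in 57SCLC_cell of 28 tested (median 1.2). In 57SCLC_allo 10 were higher (16.1% of all genes) and 4 lower (14.2%) of 27 tested (median 1.05). Neto1, which encodes an auxiliary subunit of kainate receptors, was at 5479, 5482 and 3735 in 57SCLC_cell with no read in 46LCNEC_cell. The postsynaptic scaffold genes Shank1 (8468 ± 401 against 10.1 ± 8.37) and Homer2 (4297 ± 257 against 6.14 ± 1.19) were also higher. Cacng8, an AMPA receptor auxiliary gene, went the other way (0.201 ± 0.348 against 671 ± 29.2). Of 16 genes for glutamate and glycine synthesis and transport, 2 were higher (23.9% of all genes) and 4 lower (22.2%) of 12 tested in culture, and 3 were higher (16.1%) and 8 not called of 11 in allografts. Slc6a5, the neuronal glycine transporter gene, was at 205, 206 and 192 in 57SCLC_cell and 912, 1638 and 2266 in 57SCLC_allo, and Gls2, a glutaminase gene, was higher by 3.31 ± 0.21 and 3.26 ± 0.23.

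Of 15 genes for acetylcholine synthesis and breakdown and for nicotinic receptor chaperones, 2 were higher (23.9% of all genes) and 3 lower (22.2%) of 9 tested in culture, and 3 higher (16.1%) and 2 lower (14.2%) of 10 in allografts. Ric3, a chaperone gene of nicotinic receptors, was at 1850.0 ± 19 in 57SCLC_cell and 1.51 ± 0.387 in 46LCNEC_cell, and Ly6h, which encodes a GPI-anchored modulator, at 4146 ± 126 and 0.256 ± 0.444. Its relatives Lynx1 (-1.57 ± 0.16 and -3.39 ± 0.38) and Ly6e (-1.93 ± 0.08 and -2.97 ± 0.32) were lower. A list of 6 genes around the silencing of neuronal genes held Rest, Srrm4, which acts against Rest, and Insm1. Of 6 tested, 3 were higher (23.9% of all genes) and 1 lower (22.2%) in 57SCLC_cell. In 57SCLC_allo 2 were higher (16.1%) and 1 lower (14.2%). Srrm4 and Insm1 were among the higher ones in both. The lower one was Rest (-7.89 ± 0.18 and -3.87 ± 0.21), at 201, 160.0 and 255 in 57SCLC_allo, 3111, 3432 and 2429 in 46LCNEC_allo and 1249, 1181 and 1238 in Lung. Srrm4, a splicing factor gene whose product inactivates Rest transcripts, was at 513, 492 and 1587 in flasks A, B and C and at most 2.21 in any 46LCNEC sample. Insm1, a neuroendocrine transcription factor gene, was at 34352 ± 6902 in 57SCLC_cell and 5.79 ± 4.4 in 46LCNEC_cell.

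Some receptor genes that are neighbors on a chromosome differed in level, and others did not. In the chromosome 9 cluster, Chrna5 was at 34.9 to 40.4 in 57SCLC_cell and Chrnb4 at 35.4 to 41.5. On chromosome 8, Chrnb3 and Chrna6 both had no read in any sample. On the X chromosome Gabre, Gabra3 and Gabrq lie within 587 kb, and Gabre led in 46LCNEC while Gabrq led in 57SCLC. On chromosome 3, Glrb and Gria2 lie within 294 kb, and on chromosome 1 Chrnd and Chrng within 22.1 kb, and in each pair 1 gene was at or under 23.8 in every sample.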

How the data were processed

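RNA of the 2 lines, their allografts and Lung (3 samples per group) was sequenced by the authors from poly-A selected RNA as paired reads, aligned to GRCm39 with Rbowtie2 and counted with featureCounts on GENCODE vM27. Strand setting and treatment of multimapping reads are not given in the sources used here. The deposited values are a normalized signal: counts divided by DESeq2 size factors by the authors. Dividing each sample by the value of 1 read gave whole reads for 100% of values within 0.01, and between 9480244 and 44876572 reads per sample. Intervals and floors cover counting error only.

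log2(normalized count + 1) was fitted with limma 3.58.1 (trend, R 4.3.3) for genes that reached 10 normalized counts in 3 or more of the samples compared. P-values were adjusted by Benjamini-Hochberg over all genes tested, and a call needed an adjusted p not above 0.01 with groups 1 or more apart on the log2 scale. The p-values measure the spread between these samples, which may be technical for the cultures. Named genes had a group mean of at least 100 normalized counts, or were called in a comparison of the lines with a group mean of at least 30; of each partner list, at most 4 genes called alike in both comparisons of the lines were named, by size in culture, and Rest. Alternatives were edgeR 4.0.16 and DESeq2 1.42.0 on the recovered reads, library size scaling, no filter, pseudocounts of 0.1 and 5, all 15 samples in 1 model, the replicate letter as a block, and leaving out each sample. The fit was tested on simulated data. Exon lengths and positions came from GENCODE vM39 on GRCm39, with a model for 68 of 68 genes, while reads were counted on vM27. The genes and lists were chosen with earlier results of these data known, so their calls are not independent evidence. Python 3.11.15 with pandas 2.3.3 and Matplotlib 3.10.9 made the summaries and figures. Some genes are counted but not reported here by name.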

Additional observations from a re-analysis of the deposited data

Results flagged for a closer look

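For 6 receptor genes of 42 tested, 4 of them given here, the difference between 57SCLC and 46LCNEC was not the same in allografts as in culture, by the test of that difference itself (limma interaction term over 12 samples, Benjamini-Hochberg adjusted over all genes). Over all genes 17.5% were called in either direction. The difference moved by 3.34 on the log2 scale for Grin1 and by 1.90 for Gabbr1, toward 57SCLC. It moved by -4.89 for Gria3 and by -1.31 for Chrnb2, toward 46LCNEC. Over 18 other settings the calls of Gabbr1 and Gria3 were lost in none, with ranges of 1.83 to 1.99 for Gabbr1 and -6.56 to -3.23 for Gria3. The Grin1 call was lost in 1 of them (pseudocount 0.1). The Chrnb2 call was lost in 13, where the value lay between -1.59 and -1.17. The sums of host tissue markers also differed between culture and allograft, and their part in these values was not tested.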

How the results depend on the processing

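Counts of receptor genes in the 2 comparisons of the lines were 23 higher and 10 lower in culture by limma, edgeR and DESeq2 alike, and in allografts 19 and 6 by limma and edgeR and 21 and 7 by DESeq2. Library size scaling moved the median of all genes by 0.24 in culture and 0.27 in allografts. The replicate block gave 22 higher and 10 lower in culture. Letters did not pair the cultures: deviations of dishes and flasks with the same letter correlated at 0.092, -0.084 and -0.006, and not every sample correlated best with its own letter. With all 15 samples in 1 model, 5 receptor genes were higher in 46LCNEC_cell than in Lung (8 otherwise) and 1 was lower in 57SCLC_allo than in 57SCLC_cell (2 otherwise). The interaction was called toward 46LCNEC for 2 genes, and for 6 with DESeq2, 1 with library size scaling, 1 with pseudocount 0.1 and 4 with pseudocount 5. Leaving out 1 sample gave 3 to 5 lower genes for 57SCLC_allo against 46LCNEC_allo (6 otherwise), 9 to 18 for 46LCNEC_allo against Lung (16), 3 to 6 for 46LCNEC_allo against 46LCNEC_cell (5), 0 to 3 for 57SCLC_allo against 57SCLC_cell (2) and 1 to 3 for the interaction (2). The count of 0 was from limma without flask A or tumor 275, where 8 and 6 genes were lower at an unadjusted p under 0.05. Leaving out 1 sample also changed the lower calls over all genes. For 57SCLC_allo against 46LCNEC_allo they went from 2491 to between 1965 and 2448. For 46LCNEC_allo against Lung they went from 3987 to between 3019 and 4680. Gabrb1, not called between the allografts at -0.04, changed sign to 0.023 with edgeR, 0.028 with DESeq2 and 0.21 with library size scaling, and lay between -0.28 and 0.37 when 1 tumor was left out (above 0 without tumor 319 or 316). For named genes the call and direction held in 276 values and were lost in 4 in culture, and in allografts held in 206, were gained in 10, were lost in 5 and changed sign in 3, over settings that kept all samples. The cause of these changes was not tested. Genes under 3 reads in a library limit what depth can show.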
